A study of Mus musculus with 22 samples.

Results

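The MMP, ADAMTS and TIMP genes encode the secreted and membrane-bound metalloproteases that cut extracellular matrix and the 4 inhibitors that block them. They were taken as every mouse gene symbol of Mmp, Adamts or Timp followed by a number, with the Adamts-like genes left out. Of 46 such genes in the annotation, 45 had a probe on the array, and 35 were well above background on at least 2 of 22 arrays and were tested, among 17404 genes tested in all. The 35 were 16 of 22 Mmp, 15 of 19 Adamts and 4 of 4 Timp genes on the array. The 10 genes that were not tested were Adamts3, Adamts12, Adamts13, Adamts19, Mmp1a, Mmp1b, Mmp20, Mmp21, Mmp24 and Mmp25; Adamts13 and Adamts19 were well above background on 1 array each, and the other 8 on 0. Mmp27 was not analysed here.

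The matrix metalloproteases are zinc enzymes made as inactive precursors. Collagenases cut fibrillar collagen, gelatinases cut denatured collagen, and stromelysins and matrilysin cut a broad set of matrix and cell-surface proteins. ADAMTS enzymes process procollagen, proteoglycans and fibrillin microfibrils, and TIMP proteins bind the active site of the proteases. In tumours many of these genes are transcribed by stromal and inflammatory cells as well as by the epithelium.

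Total RNA of mouse bladders was hybridised in 1 colour, with 1 array per sample, and all animals were 8 months old. BBN, a nitrosamine that causes bladder tumours, was given in drinking water for 24 weeks from 2 months of age to 7 of 8 groups, whose tissue is labelled as bladder tumour. The Krt5 mutants, Krt5-Cre R270H (3 arrays) and Krt5-Cre R172H (4), and the Upk2 mutants, Upk2-Cre R270H (2) and Upk2-Cre R172H (3), carried 1 mutant Trp53 allele, a tamoxifen-inducible Cre under the Krt5 promoter of basal cells or the Upk2 promoter of luminal cells, and the LSL-RFP reporter, and had tamoxifen. Trp53 het (3) carried the Trp53 R270H allele with no Cre and had no tamoxifen. The Cre controls Krt5-Cre (2) and Upk2-Cre (2) carried the Cre and the reporter with no mutant Trp53 allele, and had tamoxifen. The normal group (3) was wild type, with neither tamoxifen nor BBN. It is labelled as normal urothelium, while the extraction protocol speaks of whole bladders for every sample.

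Each array held 59305 non-control spots, of which 42.4% to 63.2% were well above background and 0 were saturated. The arrays came from 4 slides and 2 scanner models; all 3 normal arrays lay on a slide of their own, so normal tissue and that slide cannot be told apart, and they shared their scanner model with 8 of 19 BBN arrays. On 11 arrays, the 3 normal ones included, Xist and Y-linked genes went against the labelled sex. Both Upk2-Cre arrays carry the same code in the labels, as do Trp53 het replicates 1 and 2, although the Upk2-Cre pair differed in those genes. In BBN bladders 10 of 11 basal and 11 of 14 squamous markers were higher and 11 of 12 luminal markers lower than in normal bladders. All 10 smooth muscle markers were higher with BBN as well. Among all genes tested 23.7% were higher and 19% lower. P-values measure the spread between arrays, since the labels do not say that every array came from a separate mouse.

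Mouse chromosome 9 carries 10 Mmp genes in a row, in the order Mmp13, Mmp12, Mmp1b, Mmp3, Mmp1a, Mmp10, Mmp8, Mmp27, Mmp20 and Mmp7. The promoters of the 6 tested genes of this cluster are shown because these 6 were all higher in BBN than in normal bladders; Mmp1a, a neighbour that was well above background on 0 arrays, is shown beside them. Each line runs 5′ to 3′ from 100 bases before the RefSeq transcription start to 10 bases after it (GRCm38.p6, plus strand), and capitals mark TGANTCA, the core binding motif of AP-1, the dimer of Jun and Fos proteins. The regions are chr9:7272414-7272523 for Mmp13, chr9:7347274-7347383 for Mmp12, chr9:7445722-7445831 for Mmp3, chr9:7502242-7502351 for Mmp10, chr9:7558329-7558438 for Mmp8, chr9:7691990-7692099 for Mmp7 and chr9:7464041-7464150 for Mmp1a.
Mmp13: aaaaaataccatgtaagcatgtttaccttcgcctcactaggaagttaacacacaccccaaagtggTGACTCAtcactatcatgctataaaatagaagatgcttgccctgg
Mmp12: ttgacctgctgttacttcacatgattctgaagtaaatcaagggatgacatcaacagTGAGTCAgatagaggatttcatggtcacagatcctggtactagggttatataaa
Mmp3: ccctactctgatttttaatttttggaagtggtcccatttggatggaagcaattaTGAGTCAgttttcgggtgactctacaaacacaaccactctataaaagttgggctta
Mmp10: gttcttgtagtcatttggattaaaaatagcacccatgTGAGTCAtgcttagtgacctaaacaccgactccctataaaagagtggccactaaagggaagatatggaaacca
Mmp8: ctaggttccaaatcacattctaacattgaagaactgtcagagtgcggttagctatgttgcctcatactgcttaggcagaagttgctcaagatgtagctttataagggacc
Mmp7: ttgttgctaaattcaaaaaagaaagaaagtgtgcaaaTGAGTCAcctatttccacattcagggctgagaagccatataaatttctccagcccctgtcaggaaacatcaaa
Mmp1a: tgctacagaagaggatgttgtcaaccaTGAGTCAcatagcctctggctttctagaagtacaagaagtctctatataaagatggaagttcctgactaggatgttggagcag
The motif reads the same on both strands and begins at position -35 from the start site in Mmp13, -44 in Mmp12, -46 in Mmp3, -63 in Mmp10, -63 in Mmp7 and -73 in Mmp1a. Over the full RefSeq windows of 250 bases before to 50 after a start, 7.81% of 32851 promoters held it. Of the 35 tested genes 22 had a promoter entry. Of these, 5 of 6 in the cluster and 0 of 16 elsewhere held the motif, and Mmp8 was the cluster gene without it. A gene was counted if any of its RefSeq starts held the motif, whereas the share of 7.81% counts each promoter. Mmp12 and Mmp7 each had another start without the motif, and the start that held the motif is shown. All 3 untested cluster genes on the array, Mmp1a, Mmp1b and Mmp20, held it too, so the letters did not separate the genes that were higher from those that were below background. A match is a string of letters and not evidence of a bound site.

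BBN bladders were set against normal bladders to ask how the matrix proteases and their inhibitors differ once tumours have formed. No BBN group was wild type, and all but Trp53 het had tamoxifen, while the normal group was wild type without tamoxifen. BBN, genotype and tamoxifen therefore cannot be told apart in this comparison, and "with BBN" only names the groups. The 6 collagenase, stromelysin, elastase and matrilysin genes of the chromosome 9 cluster, 6 Adamts genes led by Adamts18 and Adamts4, and the inhibitors Timp1 and Timp4 were higher in BBN bladders. Mmp2, Mmp16, Mmp19 and Mmp23, the procollagen peptidase Adamts2, Adamts9, Adamts10, Adamts17 and Timp2 were lower. In all, 14 of 35 genes (40%) were higher and 9 (25.7%) lower at a Benjamini-Hochberg adjusted p of at most 0.05 in limma, against 23.7% and 19% of all genes tested; in either direction 23 of 35 (65.7%) passed, against 42.7%. The median log2 difference was 0.76 over the 35 genes and 0.13 over all genes. By family, 6 Mmp genes were higher and 4 lower of 16 (median 0.59), 6 Adamts higher and 4 lower of 15 (median 1.55), and 2 Timp higher and 1 lower of 4 (median 0.50). Of the 35 genes 8 were well above background on no normal array and could pass the detection filter only through BBN bladders. Fewer cells of a type and less RNA per cell cannot be told apart in whole tissue.

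**Figure D1:**
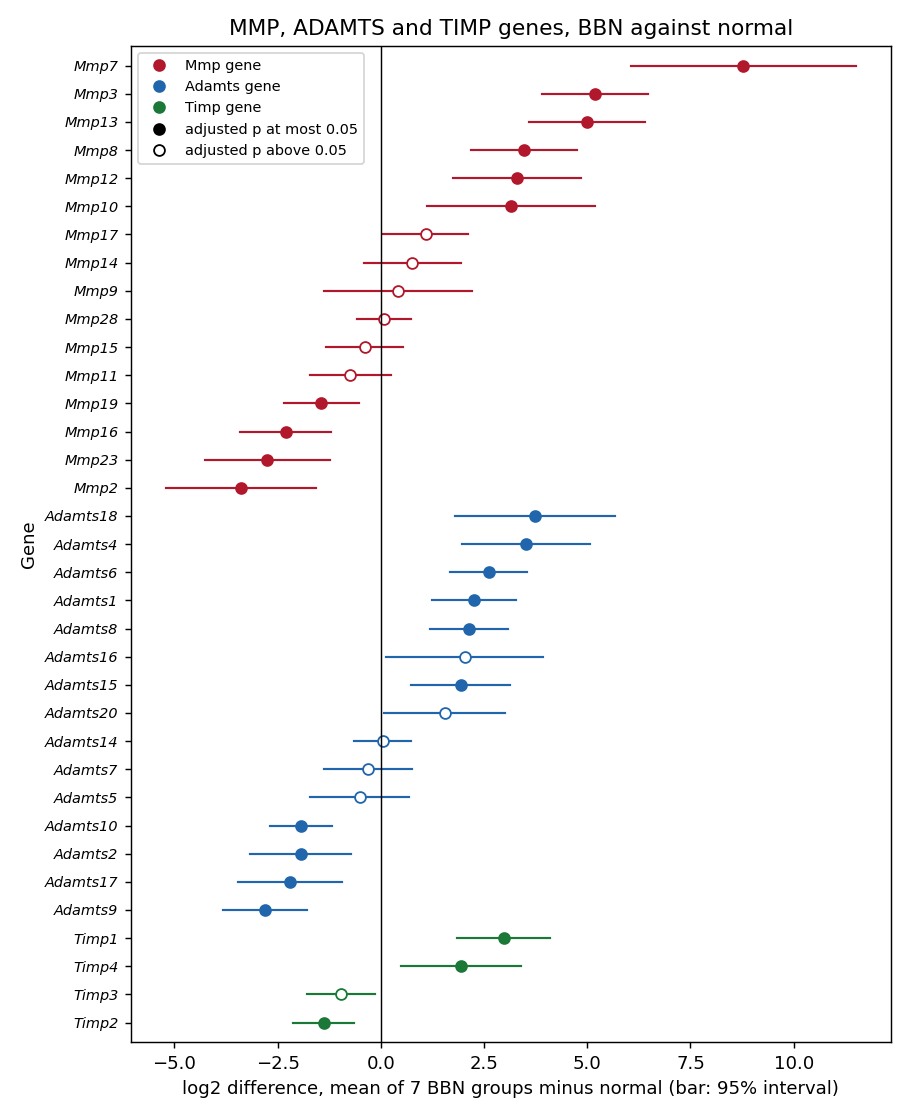
Log2 difference of each of the 35 genes between BBN and normal bladders (x axis, mean of 7 BBN group means minus the mean of 3 normal arrays), with 95% intervals as bars; filled points passed an adjusted p of 0.05. The 6 Mmp genes of the chromosome 9 cluster lie to the right, from Mmp10 at 3.16 to Mmp7 at 8.78, and Mmp2 lies farthest to the left at -3.38.

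Levels are given on the log2 scale after the 75th percentile of each array was set to 0, and each gene is compared only with itself. Where a gene was above background on no normal array, the fold is given as "at least", except for Timp4. Each normal array was then set to the higher of its own signal and the dimmest signal that the array called well above background. That dimmest signal lay at -4.48 to -2.69 on 1 scanner model and at -5.81 to -5.00 on the other, which read the normal arrays. Below these levels an absence of overlap cannot be told apart from the scanner model. BBN arrays kept their own signal, also below background, so the fold is no firm lower bound where many BBN arrays were below background.

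Mmp7, or matrilysin, an enzyme of glandular epithelia, had levels of -4.72 at the lowest, 1.70 at the median and 3.87 at the highest of 19 BBN arrays, against -7.54, -7.27 and -7.79 on the normal arrays. Every BBN array lay above every normal array, and 17 of the 19 lay within -0.31 and 3.87. The other 2, Krt5-Cre R270H replicate 1 at -3.47 and Krt5-Cre R172H replicate 1 at -4.72, stood far below the rest of their groups. With BBN, Mmp7 was at least 99.6-fold higher (log2 difference 8.78 ± 1.29 SE, adjusted p = 6.88e-05 in limma). It was well above background on 18 of 19 BBN arrays and on 0 of 3 normal arrays. The level of -4.72 lay below the dimmest signal that its array called well above background (-2.69).

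Mmp13, a collagenase best known from cartilage and bone, had levels of -3.33, -1.79 and 1.58 at the lowest, median and highest BBN array, against -5.89, -7.28 and -6.39 on the normal arrays. It was well above background on all 19 BBN arrays and on no normal array. The groups did not overlap, and the gene was at least 14.6-fold higher with BBN (4.99 ± 0.66 SE, adjusted p = 2.45e-05, limma).

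Mmp3, the stromelysin made by stromal cells, had levels of -5.41, -2.03 and 0.25 at the lowest, median and highest BBN array, against -7.51, -7.22 and -7.75 on the normal arrays. The gene was at least 8.51-fold higher with BBN (5.19 ± 0.60 SE, adjusted p = 7.52e-06, limma), without overlap. Its lowest BBN array, Trp53 het replicate 3, lay below the dimmest signal that this array called well above background (-3.76). Mmp3 was well above background on 15 of 19 BBN arrays.

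Mmp8, the collagenase stored in neutrophil granules, had levels of -5.63, -3.09 and -1.02 at the lowest, median and highest BBN array, against -6.21, -7.16 and -6.26 on the normal arrays. The sets of arrays again did not overlap, although the lowest BBN array, Krt5-Cre replicate 1, came close to the normal ones. The gene was at least 5.03-fold higher (3.48 ± 0.61 SE, adjusted p = 0.000302, limma).

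Mmp12, the macrophage elastase, had levels of -2.52, -0.62 and 2.47 at the lowest, median and highest BBN array, against -3.99, -3.42 and -4.29 on the normal arrays. It was measured above background on all 22 arrays and was 9.84-fold higher with BBN (3.30 ± 0.73 SE, adjusted p = 0.00202, limma). Its other probes gave log2 differences of 2.32 and 2.54.

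Mmp10, the epithelial stromelysin, had levels of -5.31, -1.57 and 2.01 at the lowest, median and highest BBN array, against -3.87, -5.88 and -4.22 on the normal arrays. Here the groups overlapped, with 17 of 19 BBN arrays above all normal arrays, and the gene was 8.94-fold higher (3.16 ± 0.96 SE, adjusted p = 0.0146, limma). The call was lost with the scanner model as a block (2.58, adjusted p = 0.0879), with the slide as a random block (3.21, adjusted p = 0.0598) and without normal replicate 2 (2.55, adjusted p = 0.105).

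**Figure D2:**
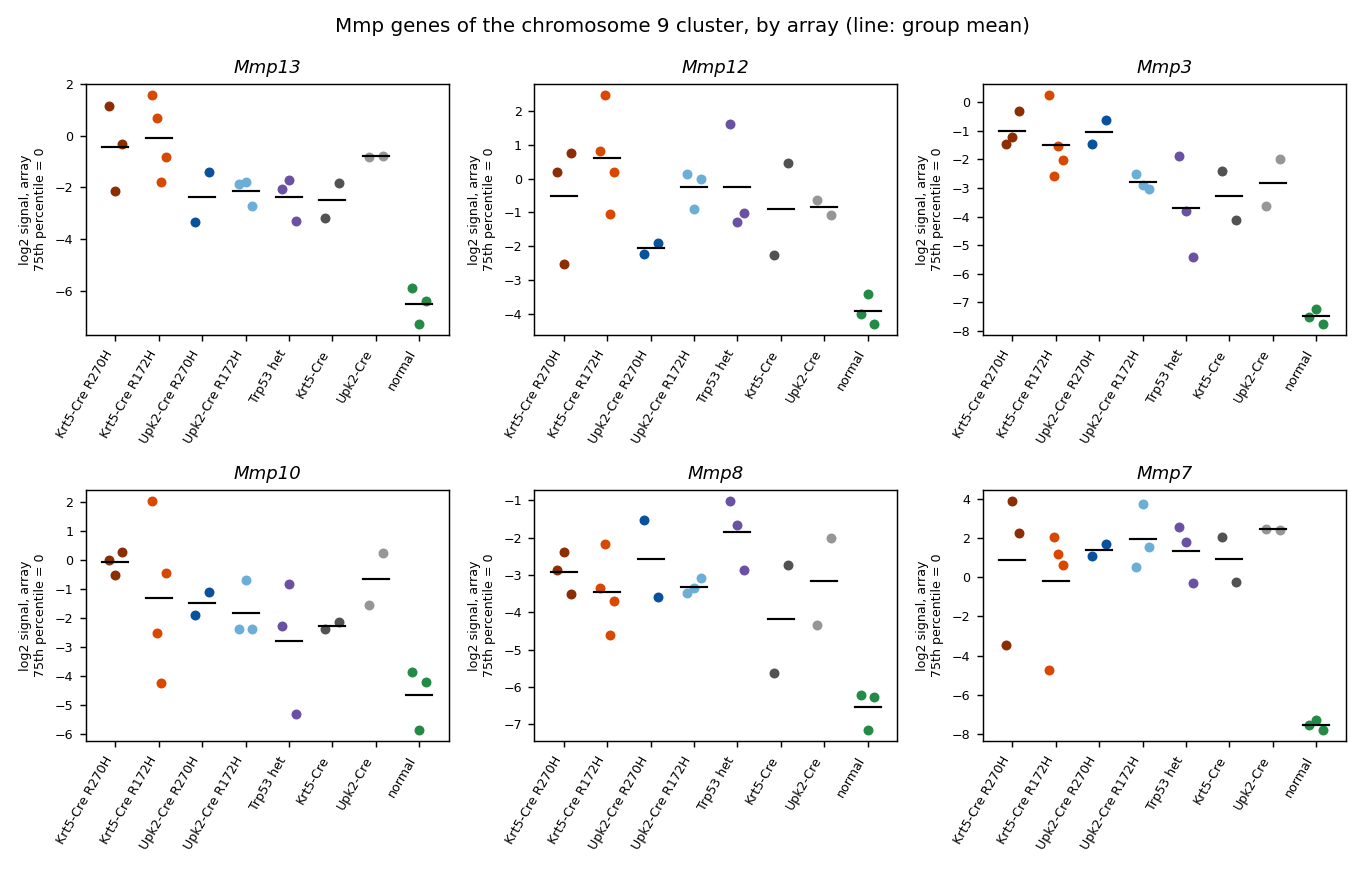
Log2 signal (y axis, array 75th percentile at 0) of the 6 tested Mmp genes of the chromosome 9 cluster on each of 22 arrays, by group (x axis); points are arrays and lines are group means. The 19 BBN arrays lie above the 3 normal arrays at the far right for every gene except Mmp10, where 17 of 19 do, and 2 Krt5-Cre mutant arrays stand low for Mmp7.

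Mmp13, Mmp3, Mmp7 and Mmp8 were well above background on 0 normal arrays and entered the test through the BBN arrays alone, and the other 3 cluster genes on the array were below background on every array, BBN arrays included. The count of 6 higher genes therefore depends in part on the filter on dim probes. Of the 10 tested Mmp genes outside the cluster 0 were higher and 4 lower; the difference between the cluster and these genes was not tested. Log2 differences of the dimmest genes depended on how background was removed: with normexp correction of the raw signal that of Mmp7 was 5.05, of Mmp13 2.65, of Mmp3 2.35 and of Mmp8 1.64, all with an adjusted p still under the threshold. Within the scanner model that the normal arrays share with 8 BBN arrays, the differences were 9.52 for Mmp7, 4.62 for Mmp13, 4.99 for Mmp3, 2.85 for Mmp8, 3.51 for Mmp12 and 2.57 for Mmp10, and all 6 passed. Of 11 neutrophil markers 6 were higher and 1 lower with BBN, against 23.7% higher and 19% lower among all genes tested. The log2 of their mean signal spanned 2.48 to 5.81 on BBN arrays against 1.88 to 2.84 on normal arrays. For macrophage markers 4 of 11 were higher and 1 lower, beside the same shares of all genes, with spans of 0.55 to 2.89 against 0.68 to 1.43. For squamous markers the spans were 2.55 to 7.06 against 3.26 to 3.5. The part of these cell types in the Mmp differences was not tested.

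Among the Adamts genes the 7 that cut proteoglycans are Adamts1, Adamts4, Adamts5, Adamts8, Adamts9, Adamts15 and Adamts20, and 4 of them were higher in BBN bladders and 1, Adamts9, lower, against 23.7% higher and 19% lower among all genes tested. Adamts4, an aggrecanase, had levels of -2.57, -0.27 and 3.26 at the lowest, median and highest BBN array, against -3.33, -4.44 and -3.78 on the normal arrays. The groups did not overlap, and the gene was 11.4-fold higher with BBN (3.51 ± 0.73 SE, adjusted p = 0.00123, limma). Adamts1, a versican-cutting enzyme, ranged from 1.14 to 4.09 on BBN arrays and from -0.35 to 0.63 on normal arrays (2.26 ± 0.48 SE). Adamts8 and Adamts15 lie side by side on chromosome 9, and both were higher. Adamts8 differed by 2.13 ± 0.45 SE without overlap. Adamts15 differed by 1.93 ± 0.57 SE (adjusted p = 0.0122, limma), with 18 of 19 BBN arrays above all normal ones, and lost the call without normal replicate 1 (1.84, adjusted p = 0.0588) and with the slide as a random block (1.92, adjusted p = 0.0586).

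Adamts5, the neighbour of Adamts1 on chromosome 16 and the other main aggrecanase, did not pass (-0.51 ± 0.57 SE, adjusted p = 0.481, limma). Its second, dimmer probe gave -2.19. For Adamts20, above background on 3 BBN arrays, the probes pointed in opposite directions, with 1.55 for the brighter and -1.20 for the other, and neither direction was called.

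Adamts18, a protease whose substrates are less well known, had levels of -6.71, -3.69 and -1.34 at the lowest, median and highest BBN array, against -7.70, -7.30 and -7.32 on the normal arrays. It was above background on 13 of 19 BBN arrays and at least 3.25-fold higher (3.74 ± 0.92 SE, adjusted p = 0.00388, limma). Its second probe gave 1.22. Adamts6 was at least 2.05-fold higher by its brighter probe (2.62 ± 0.44 SE), while its other probe gave 0.02. It was above background on 10 of 19 BBN arrays. Adamts16, the closest relative of Adamts18, was above background on 8 BBN arrays and 1 normal array and did not pass (2.03 ± 0.90 SE, adjusted p = 0.0773, limma).

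The lower genes were led by Mmp2, the gelatinase that fibroblasts make constitutively. It had levels of -2.96 at the lowest, 0.08 at the median and 3.08 at the highest BBN array, against 3.78, 3.33 and 3.40 on the normal arrays. Every BBN array lay below every normal one; the highest was Krt5-Cre R270H replicate 2 and the lowest Krt5-Cre replicate 2. Mmp2 was 10.4-fold lower with BBN (-3.38 ± 0.86 SE, adjusted p = 0.00518, limma). With the scanner model as a block the difference was -2.30 (adjusted p = 0.0567), and within the normal arrays' scanner model it was -2.83 (adjusted p = 0.00128).

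Mmp23, a membrane-anchored protease, had levels of -2.40, -0.59 and 2.14 at the lowest, median and highest BBN array, against 2.15, 2.0 and 1.94 on the normal arrays. All but 1 BBN array, Krt5-Cre R270H replicate 2, lay below the normal arrays, and the gene was 6.73-fold lower (-2.75 ± 0.71 SE, adjusted p = 0.00576, limma). The scanner block ended this call too (-2.01, adjusted p = 0.057). Mmp19, a widely expressed protease, had levels of -2.38, -0.65 and 0.71 at the lowest, median and highest BBN array, against 1.04, 0.91 and 0.71 on the normal arrays. It was 2.72-fold lower (-1.44 ± 0.43 SE, adjusted p = 0.0133, limma), but its other probe gave -0.01. The Mmp19 call was lost with the mean over its probes (-0.73), with the scanner block (-0.85), without the 8 BBN arrays that go against their sex label (-1.48), with the difference between Xist and Y-linked genes as a covariate (-1.20), and without normal replicate 1 or 2 (-1.36 and -1.43).

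Mmp16, a membrane-type protease, had levels of -7.91, -5.81 and -4.42 at the lowest, median and highest BBN array, against -3.64, -3.60 and -3.79 on the normal arrays. It was above background on all 3 normal arrays and on only 1 of 19 BBN arrays, so its log2 difference of -2.31 ± 0.52 SE (adjusted p = 0.00232, limma) rests on signals below background. With normexp correction it was -0.12 (adjusted p = 0.837).

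Adamts9, a proteoglycan-cutting enzyme that is also needed for ciliogenesis, had levels of -2.32, -0.73 and 1.03 at the lowest, median and highest BBN array, against 2.85, 1.17 and 1.96 on the normal arrays. The groups did not overlap, and the gene was 7.01-fold lower with BBN (-2.81 ± 0.48 SE, adjusted p = 0.000277, limma). Adamts2, which removes the N-terminal propeptide of fibrillar procollagens, had levels of -0.38, 1.80 and 3.01 at the lowest, median and highest BBN array, against 3.52, 3.64 and 3.19 on the normal arrays. It was 3.85-fold lower (-1.94 ± 0.58 SE, adjusted p = 0.013, limma), without overlap. This call did not hold with the scanner block (-1.16, adjusted p = 0.132) or without normal replicate 1 or 2 (adjusted p = 0.0555 and 0.0612). Adamts14, which has the same activity, did not pass (0.05 ± 0.33 SE), and Adamts3, the third enzyme of this kind, was not tested.

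Adamts10 and Adamts17 are tied to fibrillin microfibrils by human disease. Adamts10 had levels of -5.33, -3.64 and -2.16 at the lowest, median and highest BBN array, against -1.79, -1.95 and -1.5 on the normal arrays. It was 3.81-fold lower (-1.93 ± 0.36 SE, adjusted p = 0.000509, limma), and its other probe gave -1.79. Adamts17 had levels of -6.22, -4.77 and -3.02 at the lowest, median and highest BBN array, against -2.50, -2.44 and -2.74 on the normal arrays. The difference was -2.20 ± 0.60 SE (adjusted p = 0.00741, limma), with 6 of 19 BBN arrays above background. Neither set overlapped with normal, yet both calls were lost with normexp correction, at -0.77 for Adamts10 and -0.48 for Adamts17.

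The 4 inhibitors moved in different directions. Timp1, a soluble inhibitor that cytokines induce, had levels of 1.87, 4.29 and 6.15 at the lowest, median and highest BBN array, against 1.12, 0.93 and 0.47 on the normal arrays. It was 7.89-fold higher with BBN (2.98 ± 0.53 SE, adjusted p = 0.000381, limma), without overlap. Timp2, which both inhibits proteases and takes part in the activation of pro-Mmp2 by Mmp14, had levels of 4.13, 5.25 and 6.24 at the lowest, median and highest BBN array, against 6.59, 6.61 and 6.38 on the normal arrays. It was 2.60-fold lower (-1.38 ± 0.35 SE, adjusted p = 0.00494, limma), again without overlap, and its other probe gave -0.69.

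Timp3, which stays bound to matrix and also inhibits Adamts4 and Adamts5, did not pass. It had levels of 0.83, 2.71 and 4.18 at the lowest, median and highest BBN array, against 3.68, 3.64 and 3.09 on the normal arrays (-0.95 ± 0.39 SE, adjusted p = 0.0579, limma), and the groups overlapped. The gene passed within the normal arrays' scanner model (-0.99, adjusted p = 0.0209), with array weights (-1.11, adjusted p = 0.000117) and without Krt5-Cre replicate 1 (-1.12, adjusted p = 0.00753), but with the scanner model as a block the difference was -0.58 (adjusted p = 0.319). Timp4 was above background on 5 BBN arrays and no normal array, and differed by 1.95 ± 0.69 SE (adjusted p = 0.0308, limma). The fold with the normal arrays raised was 1.68. Most BBN signals lay below background too, so this is no lower bound for Timp4. Its call was lost with quantile normalisation (1.23), normexp (1.1), the scanner block (0.89), within the scanner model of the normal arrays (1.11), with the slide as a random block (2.02), with the sex label as a covariate (2.13), and without any 1 of the 3 normal arrays.

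Mmp14, the membrane-type protease that activates pro-Mmp2, had levels of -1.74, 1.06 and 2.25 at the lowest, median and highest BBN array, against 0.15, -0.17 and 0.25 on the normal arrays. It did not pass (0.76 ± 0.56 SE, adjusted p = 0.277, limma), with 16 of 19 BBN arrays above all normal ones. The lowest array was Krt5-Cre R270H replicate 1, without which the difference was 0.93 (adjusted p = 0.0456), and the gene also passed within the normal arrays' scanner model (0.98, adjusted p = 0.00391). With the sex label as a covariate the difference was 0.13 (adjusted p = 0.874), and with the scanner model as a block 1.16 (adjusted p = 0.177). Mmp9, the gelatinase of neutrophils and macrophages, had levels of -5.37, -2.42 and -0.37 at the lowest, median and highest BBN array, against -3.16, -2.59 and -3.21 on the normal arrays. It did not pass either (0.42 ± 0.85 SE, adjusted p = 0.71, limma), and BBN arrays lay on both sides of the normal ones. The remaining genes that did not pass were Mmp11, Mmp15, Mmp17, Mmp28 and Adamts7, with log2 differences from -0.74 for Mmp11 to 1.08 for Mmp17.

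**Figure D3:**
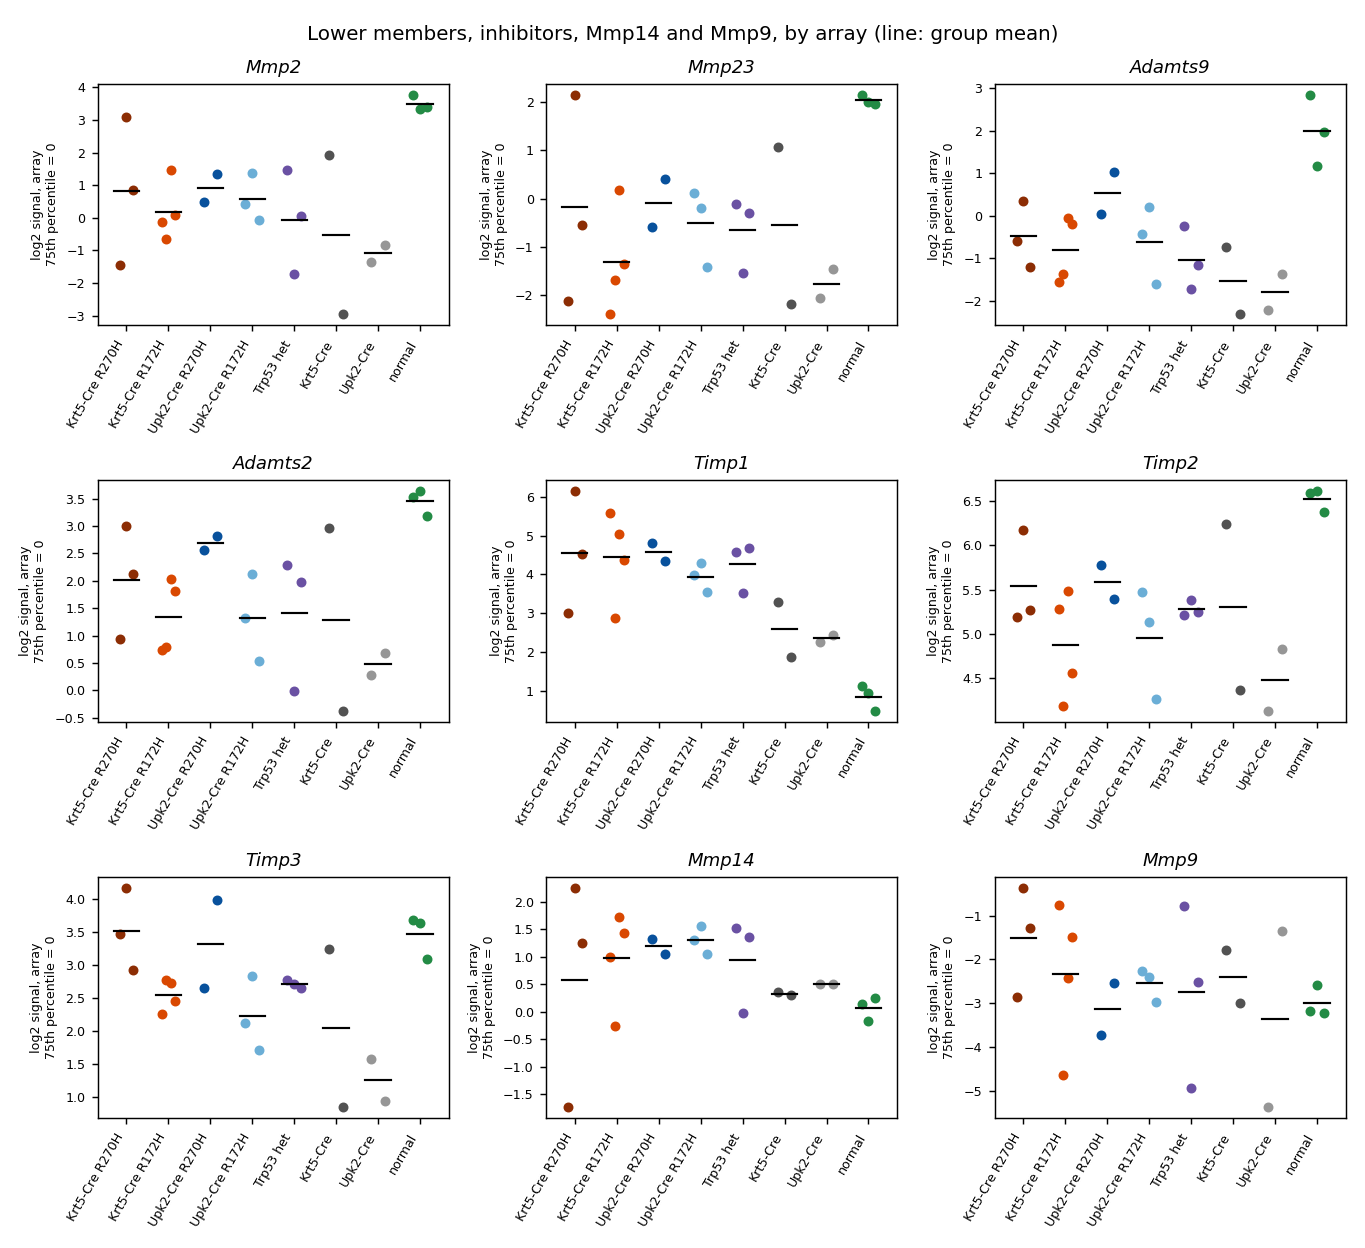
Log2 signal (y axis, array 75th percentile at 0) of 4 lower genes (Mmp2, Mmp23, Adamts9, Adamts2), of Timp1, Timp2 and Timp3, and of Mmp14 and Mmp9 on each of 22 arrays, by group (x axis); points are arrays and lines are group means. The normal arrays stand above every BBN array for Mmp2, Adamts9, Adamts2 and Timp2 and below every BBN array for Timp1, where the Cre controls are the lowest of the BBN groups.

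Counted over the 35 genes, every BBN array lay above every normal array for 12 and below for 7, against 13.6% and 12.0% of all genes tested. Among the 12, Mmp3, Mmp7, Mmp8, Mmp13, Adamts6, Adamts18 and Timp4 were well above background on no normal array. They could pass the detection filter only through BBN arrays, so their lack of overlap is no separate support for a difference. Of 11 fibroblast markers 7 were lower and 1 higher with BBN, against 19% lower and 23.7% higher among all genes tested. The log2 of their mean signal spanned 0.80 to 4.42 on BBN arrays and 4.5 to 4.97 on normal arrays. The part of fibroblasts in the lower levels of Mmp2, Mmp23, Adamts2 and the others was not tested. Of 6 adipocyte markers 1, Pck1, was higher (3.10) and 1, Fabp4, lower (-4.18), and the list median was 2.09. The log2 of their mean signal, to which Fabp4 was the brightest contributor, spanned -2.48 to 2.80 on BBN arrays and 3.64 to 4.26 on normal arrays, so that span follows Fabp4 and not the list.

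Within the 19 BBN arrays, 6 genes were set against markers of a cell type taken from textbooks as a possible source. For each array the mean deviation of the marker genes from their averages was used. Mmp2 followed the fibroblast markers (Pearson r = 0.81, Spearman rho = 0.81, permutation p = 2e-05 and 8e-05, adjusted over 6 pairs 0.00012 and 0.00048). The relation held within either scanner model, with r = 0.80 over 11 arrays and 0.91 over 8 arrays (exact permutation p = 0.0028, adjusted 0.0168, two-sided), and r was 0.73 without the 2 arrays farthest from the median score. The points share their arrays and the scaling of each array. The other 5 pairs did not pass: r was 0.44 for Mmp8 with neutrophil markers, 0.22 for Mmp9 with neutrophil markers, -0.37 for Mmp12 with macrophage markers, 0.40 for Mmp10 with squamous markers and 0.40 for Mmp7 with luminal markers. Their adjusted permutation p-values lay between 0.14 and 0.368 for Pearson's r and between 0.115 and 0.381 for Spearman's rho. With arrays that share a code averaged, Mmp12 and the macrophage markers passed by Spearman's rho in the negative direction (rho = -0.66, adjusted permutation p = 0.0145, 17 samples) and not by Pearson's r (-0.56, adjusted p = 0.0552).

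**Figure D4:**
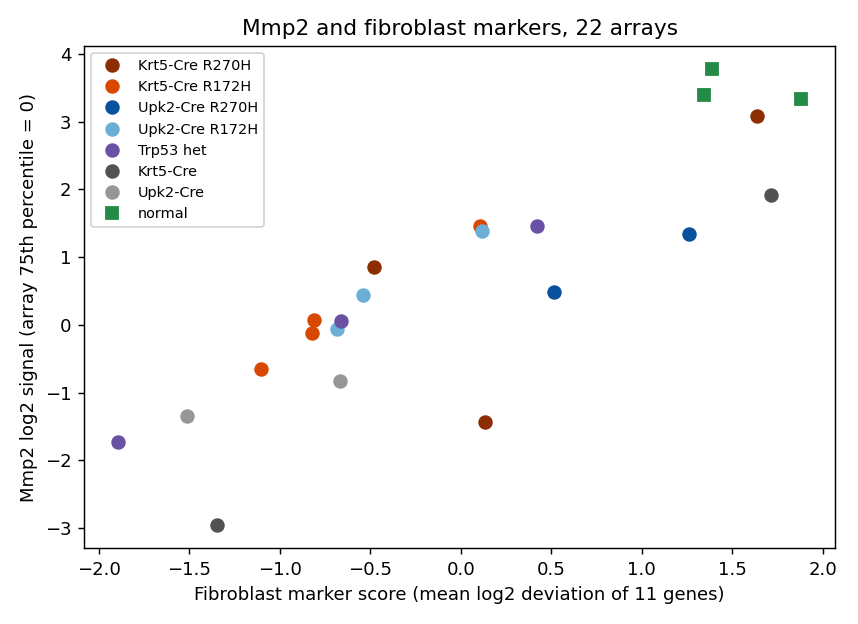
Mmp2 log2 signal (y axis, array 75th percentile at 0) against the fibroblast marker score (x axis, mean log2 deviation of 11 genes) on 19 BBN arrays (circles, coloured by group) and 3 normal arrays (squares). Over the 19 BBN arrays r was 0.81, and the normal arrays sit at the upper right.

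The protease genes varied widely among arrays of 1 group. The median within-group SD on the log2 scale was 0.97 over the 35 genes and 0.55 over all genes tested, and 33 of the 35 lay above that all-gene median. Mmp7 had the largest SD of the 35 (2.25), and Mmp28, an epithelial protease, the smallest (0.50). A single array, Krt5-Cre R270H replicate 2, was the highest of the 19 BBN arrays for 15 of the 35 genes, Mmp2, Mmp7, Mmp14 and Timp1 among them. How often it was the highest over all genes tested was not counted, so this need not be particular to the protease genes. Upk2-Cre replicate 1 was the lowest for 7 and Krt5-Cre replicate 2 for 6. The fibroblast markers stood at 4.25 on Krt5-Cre R270H replicate 2, the second highest of the BBN arrays, at 1.18 on Upk2-Cre replicate 1 and at 0.96 on Krt5-Cre replicate 2. Krt5-Cre R270H replicate 2 also had the highest smooth muscle (6.84) and macrophage (2.89) marker signal of the BBN arrays. Its basal marker signal of 6.39 was near the lowest (6.35).

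The Trp53 mutants were set against the Cre controls of the same promoter, all with BBN and tamoxifen, to ask whether the mutant allele changes the proteases of the tumours. In the Krt5 mutants against Krt5-Cre, 0 of 35 genes passed (limma), against 0.0115% of all genes. An unadjusted p under 0.05 was found for 3 of the 35 genes and for 836 of all 17404. Timp1 had levels of 3.0, 6.15 and 4.53 in Krt5-Cre R270H and 5.58, 2.86, 5.03 and 4.36 in Krt5-Cre R172H, against 3.30 and 1.87 in Krt5-Cre. The 2 sets overlapped, and the difference of 1.93 had a 95% interval of 0.48 to 3.38 (adjusted p = 0.912, limma). Mmp13 had levels of 1.16, -2.14 and -0.31 in Krt5-Cre R270H and 1.58, 0.69, -1.79 and -0.82 in Krt5-Cre R172H, against -3.17 and -1.81 in Krt5-Cre (2.23, interval 0.44 to 4.03, adjusted p = 0.943, limma). Mmp3 differed by 2.02 (0.38 to 3.67, adjusted p = 0.943, limma). With the scanner model as a block these differences were 2.06 for Timp1, 1.97 for Mmp13 and 2.14 for Mmp3, with adjusted p-values of 0.371, 0.489 and 0.433.

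In the Upk2 mutants against Upk2-Cre, 0 of 35 genes passed (limma), against 0.00575% of all genes. An unadjusted p under 0.05 was found for 7 of the 35 genes and for 1094 of all 17404. Adamts4 had levels of 0.64 and 2.89 in Upk2-Cre R270H and -0.27, 3.26 and -0.84 in Upk2-Cre R172H, against -2.23 and -2.33 in Upk2-Cre. All 5 mutant arrays lay above both control arrays, and the difference of 3.52 had a 95% interval of 1.44 to 5.61 (unadjusted p = 0.00242, adjusted p = 0.777, limma). Timp3 had levels of 2.65 and 3.99 in Upk2-Cre R270H and 2.12, 2.83 and 1.71 in Upk2-Cre R172H, against 1.58 and 0.93 in Upk2-Cre (1.52, interval 0.41 to 2.63). Mmp19 differed by 1.61 (0.38 to 2.84). Because the Upk2-Cre arrays share a code, they were also counted as 1 sample, and Adamts4 then had an adjusted p of 0.9998. Timp1 differed by 1.91 (0.39 to 3.43, adjusted p = 0.777, limma) between Upk2 mutants and Upk2-Cre, close in size to the Krt5 pair.

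**Figure D5:**
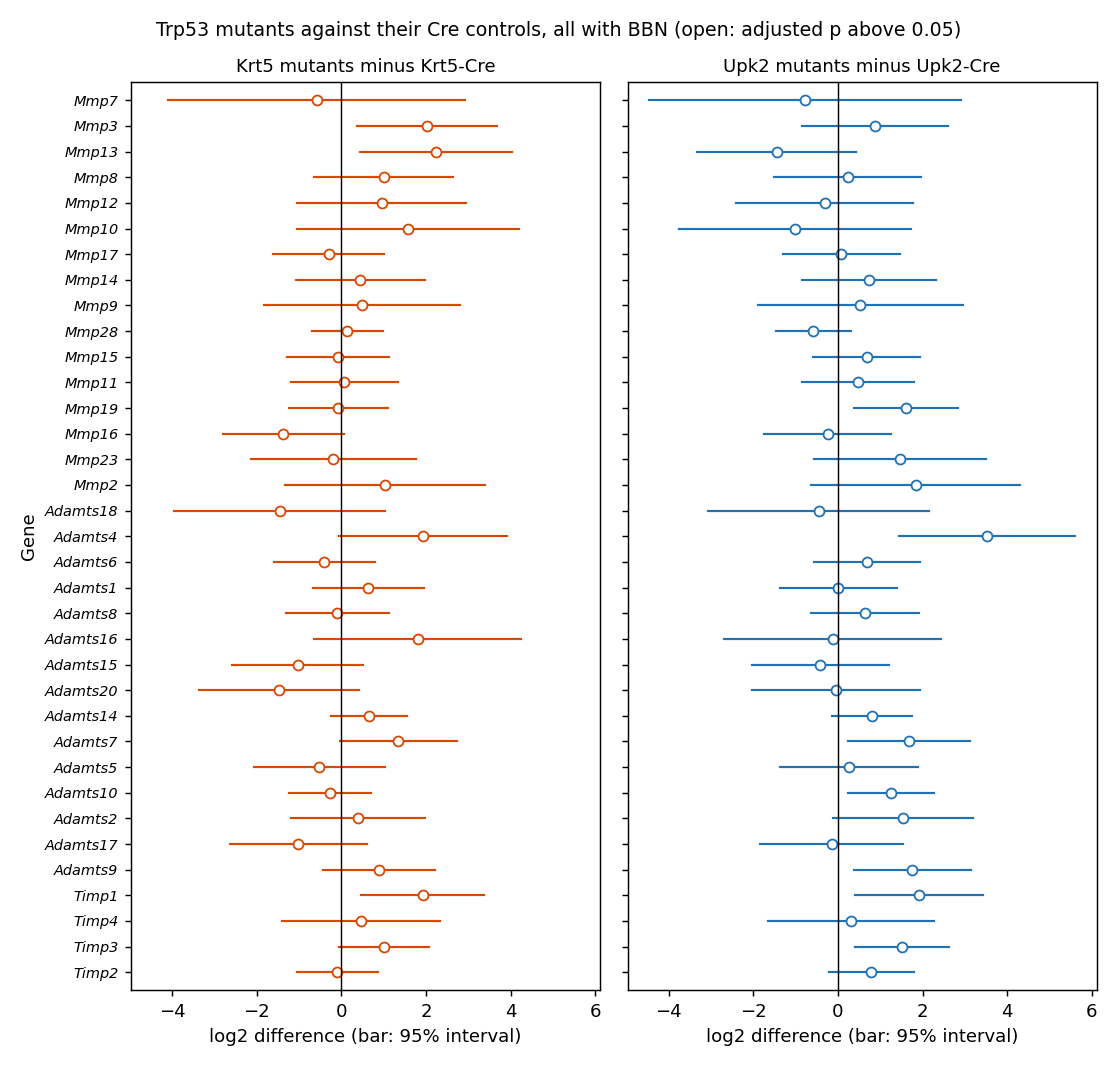
Log2 difference (x axis) of each of the 35 genes between Krt5 mutants and Krt5-Cre (left) and between Upk2 mutants and Upk2-Cre (right), with 95% intervals as bars; open points have an adjusted p above 0.05. Mmp13 lies at 2.23 on the left and -1.45 on the right, and Adamts4 at 3.52 on the right has the largest difference of that panel.

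The difference between these mutant effects was tested as an interaction, and 0 of 35 genes passed (limma), against 0% of all genes. Of the 35 genes 2 had an unadjusted p under 0.05, as had 578 of all 17404. Mmp13 had the smallest p: its mutant effect was 3.68 larger under the Krt5 than under the Upk2 promoter (interval 1.08 to 6.28, adjusted p = 0.998, limma), with Upk2 mutant levels of -3.33, -1.40, -1.88, -1.80 and -2.70 against -0.81 and -0.78 in Upk2-Cre. Adamts10 followed at -1.52 and Mmp19 at -1.68. In Krt5 mutants against Upk2 mutants 0 of 35 genes passed (limma), against 0.00575% of all genes. Of the 35 genes 2 had an unadjusted p under 0.05, as had 922 of all 17404. Mmp13 differed by 1.99 (0.66 to 3.32), Mmp28 by 0.66 (0.03 to 1.28) and Adamts16 by 1.71 (-0.10 to 3.52), each with an adjusted p of 0.886 in limma. On the 2 scanner models the Krt5 mutants had 5 and 2 arrays and the Upk2 mutants 2 and 3. With the scanner model as a block the differences were 1.72 for Mmp13, 0.45 for Mmp28 and 1.13 for Adamts16.

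Against the other 5 BBN groups together, 0 of 35 genes passed in the Krt5 mutants (limma), against 0% of all genes. Of the 35 genes 4 had an unadjusted p under 0.05, as had 873 of all 17404. Mmp13 differed by 1.77 (0.69 to 2.85, unadjusted p = 0.00299, adjusted p = 0.874, limma), Mmp3 by 1.48 (0.50 to 2.47) and Timp3 by 0.73 (0.09 to 1.36). This contrast shares its arrays with the comparisons above. Trp53 het was set against both Cre controls, and 0 of 35 genes passed (limma), against 0% of all genes. Trp53 het had no Cre and no tamoxifen while the controls had both, so the allele cannot be told apart from these. Replicates 1 and 2 of Trp53 het share a code, as do both Upk2-Cre arrays. Of the 35 genes 3 had an unadjusted p under 0.05, as had 841 of all 17404. Timp1 had levels of 4.58, 3.53 and 4.68 in Trp53 het, against 3.30, 1.87, 2.26 and 2.43 in the Cre controls. No control array reached a Trp53 het array, and the difference was 1.80 (0.42 to 3.18, adjusted p = 0.814, limma). Mmp8 differed by 1.82 (0.26 to 3.39) and Timp3 by 1.07 (0.06 to 2.08).

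R270H was set against R172H over both promoters, and 0 of 35 genes passed (limma), against 0% of all genes. Of the 35 genes 5 had an unadjusted p under 0.05, as had 1708 of all 17404. Timp3 had levels of 3.47, 4.18, 2.92, 2.65 and 3.99 with R270H, against a lowest, median and highest of 1.71, 2.46 and 2.83 with R172H. The difference was 1.03 (0.25 to 1.82, adjusted p = 0.355, limma), and the sets overlapped. Adamts8 differed by 1.18 (0.28 to 2.08) and Mmp17, a membrane-type protease, by 1.23 (0.26 to 2.20). All 5 R270H arrays were read on 1 scanner model, and 2 of 7 R172H arrays on the same one; with the scanner model as a block the differences were 1.5 for Timp3, 1.91 for Adamts8 and 1.36 for Mmp17, with adjusted p-values of 0.137, 0.114 and 0.289. A test for any difference among the 7 BBN groups called 0 of 35 genes (limma F test), against 0% of all genes, and the smallest adjusted p of the 35 was that of Timp3 (0.728). In these 8 comparisons a p above the threshold does not show that levels were alike, as the intervals span up to several log2 units.

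Among 32 tested genes of other extracellular proteases and their inhibitors, 12 were higher and 3 lower in BBN than in normal bladders (median 0.21), against 23.7% higher and 19% lower among all genes. Serpinb2, an inhibitor of plasminogen activators, ranged from -1.51 to 2.19 on BBN arrays and from -7.87 to -7.34 on normal arrays, at least 56.8-fold higher (adjusted p = 2.85e-07, limma). Adam8, a membrane protease of leukocytes and tumour cells, differed by 4.47 ± 0.41 SE. Reck, a membrane-anchored inhibitor of Mmp2, Mmp9 and Mmp14, was lower by -3.34 ± 0.51 SE on the log2 scale, with levels of -4.08 to -0.33 on BBN arrays and 1.14 to 1.39 on normal arrays. Ctsk, a collagen-cutting cathepsin, was lower at -2.90 ± 0.52 SE.

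Of 25 ADAMTS-like genes and ADAMTS substrates, 4 were higher and 9 lower with BBN (median -0.41), set against the same 23.7% and 19% of all genes. Fbn2, a fibrillin, was higher at 2.65 ± 0.45 SE. Lower were Adamtsl3 (-2.49 ± 0.50 SE), a matrix protein with no protease domain, the collagen gene Col3a1 (-2.10 ± 0.54 SE), whose product Adamts2 processes, and Thbs2 (-1.92 ± 0.50 SE), a matricellular thrombospondin. Of 22 AP-1, ETS and Runx factors and the cytokines that act on them, 11 were higher and 1, Fos, lower (median 0.94), beside those same shares. Fosl1, a Fos-family subunit of AP-1, was at least 23.7-fold higher with BBN (adjusted p = 8.04e-07, limma), ranging from -2.63 to 0.57 on BBN arrays and from -7.28 to -5.79 on normal arrays. The cytokine Il1b differed by 4.64 ± 0.60 SE, Hbegf, a ligand of the EGF receptor, by 3.10 ± 0.47 SE, and Tnf by 2.20 ± 0.28 SE, while Fos differed by -1.25 ± 0.40 SE. Of each of these 3 lists, 0 genes passed in the comparisons among BBN groups (limma).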

How the data were processed

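Per the file headers, scanner intensities come from Agilent Feature Extraction 11.0.1.1 with background subtracted; version 9.1 and limma are named per the submitters' processing notes, without their roles. The authors' deposited table of log2 values, which share 1 distribution across arrays as read from the values, served as an alternative.

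The log2 processed signal minus the 75th percentile of its array was used, after flagged spots (53 to 301 per array) were left out. Of 56605 probes, 32994 carried 1 gene symbol by their RefSeq accession, 0 several and 23611 none; the brightest probe stood for each of 22911 genes. Genes well above background on 2 or more of 22 arrays were tested, and 17 with a flagged value, 0 of them protease or inhibitor genes, were dropped. Differences were fitted in limma 3.58.1 (R 4.3.3) over 8 group means, with equal weights for the groups of a side and Benjamini-Hochberg adjustment over 17404 genes at 0.05. It was tested on simulated data. In BBN against normal it recovered 77.5% of genes changed by 2 on the log2 scale and 0% of those changed by 1. In the measured arrays some differences below 1 were nevertheless called in this comparison. Among them were Ctsb at 0.87 (adjusted p = 0.00133, limma) and Adam9 at -0.64 (adjusted p = 0.0324, limma). For a change of 2, recovery among BBN groups ran from 5% in the interaction to 87.5% in Krt5 mutants against the other BBN groups. It was 53.5% in Krt5 mutants against Krt5-Cre and 49.5% in Upk2 mutants against Upk2-Cre. The number of arrays limits the precision.

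Correlations used 100000 permutations in Python 3.11.15 with numpy 2.4.6, or all orders over 8 arrays. Promoters are RefSeq windows of GRCm38.p6; no genome was used. Members and gene lists were chosen with earlier results of these data known. Values by array are given for the called genes with the 8 highest and 8 lowest differences, the 4 Timp genes, Mmp2, Mmp9 and Mmp14, in other comparisons for the 3 genes of smallest p, and for up to 4 called genes of smallest p in each partner list; Fos and the arrays that stand out were named after their values were seen. Replicate numbers did not pair the arrays: deviations of same-numbered arrays from their group means correlated at a median of 0.03 (range -0.48 to 0.56, 66 pairs). Arrays sharing a code correlated at 0.92 and 0.949, within the range of other pairs of a group (0.898 to 0.994).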

Additional observations from a re-analysis of the deposited data

How the results depend on the processing

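In BBN against normal bladders 38 alternatives were run, 22 of them leaving out 1 array each. None of the 23 called genes changed sign. Leaving out 1 array gave 19 to 26 called genes, and leaving out any 1 BBN array lost none of the 23. The deposited table, which holds values for 23 of the 35 genes, called 14, of which 7 were higher. A filter requiring signal above background on all arrays left 17 of the 35 genes and called 11, of which 5 were higher. With the scanner model as a block 17 of the 23 were kept, and the lower genes numbered 5; Mmp2, Mmp10, Mmp19, Mmp23, Adamts2 and Timp4 were lost. Array weights gave 31 called genes, and 13110 of all genes, against 7432 in the main analysis; the filter on all arrays gave 4586. Quantile normalisation, which brought the median of all genes to -0.01, kept 22 of the 23. The cause of these changes was not tested, apart from the smaller number of genes tested. Mmp9, never called, turned to -0.30 with the sex label as a covariate and to -0.049 without the 8 BBN arrays that go against that label, an alternative chosen after seeing the data.

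Some values moved by over 1.5 times without losing the call: Adamts18 to 1.58 and Adamts6 to 1.19 with normexp, Adamts6 to 1.71 with quantile normalisation, and Adamts18 to 2.48 and Adamts6 to 1.32 with the mean over probes. Mmp8 with neutrophil markers passed when deviations from group means were used (r = 0.63, permutation, adjusted p = 0.0118), and Mmp9 with neutrophil markers turned to -0.19 when arrays sharing a code were averaged; Mmp12 with macrophage markers then passed by rank (Spearman rho = -0.66, permutation, adjusted p = 0.0145). The replicate number as a block kept all 23 calls, and no call changed with it; same-numbered arrays are not known to be paired. In the other 8 comparisons 0 of the 35 genes were called under each of 36 alternatives (limma). Signal near background limits the size of differences for Mmp3, Mmp7, Mmp8, Mmp13, Mmp16, Adamts17, Adamts18, Adamts6 and Timp4.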
